A study of Mus musculus with 7 samples.

Results

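The genes described here drive a cell through DNA replication and mitosis. They were a list of 48 genes given by name, comprising cyclins and their kinases, replication factors, spindle and kinetochore proteins and markers of dividing cells. A probe set annotated with the gene's symbol was found for 45 of the 48, among 19505 named genes on the array. The other 3, Ccnb1, Ccnd1 and Mcm7, are not analysed here. Each of the 45 had 1 probe set. The measurements were made in microglia, the resident macrophages of the brain, sorted as viability dye-negative, CD45+ and CD11b+ cells from brain cell suspensions of C57BL/6 mice. One group was 5xFAD;B2m-/- (B2m knockout, 4 arrays) and the other was 5xFAD;B2m+/+ (B2m wildtype, 3 arrays). Both groups carried 5xFAD, a set of human amyloid precursor protein and presenilin transgenes driven by the neuronal Thy1 promoter, so there was no amyloid-free group. B2m encodes the light chain of MHC class I, and the deletion is in every cell of the mouse, so few CD8+ T cells develop in these animals. The labels gave no age, sex or batch, and did not say whether each array came from a separate animal.

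A cell that leaves rest makes D-type cyclins, which activate CDK4 and CDK6 and release E2F transcription factors from the retinoblastoma protein. E2F then switches on genes for S phase, such as the MCM helicase subunits and the enzymes of nucleotide supply. Genes for mitosis are switched on later, through the MuvB complex bound to CHR elements (cell cycle genes homology region) and the factor NF-Y bound to CCAAT boxes. In the adult brain most microglia rest and renew slowly through CSF1 receptor signalling, while around amyloid plaques more of them divide.

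Promoter sequences were searched for these control elements. RefSeq promoter windows on GRCm38.p6, running from 250 bases before to 50 bases after the start site, were held for 37 of the 45 genes, as 40 windows. Of these 40 windows, 55.0% held a CHR match (TTTGAA or TTCGAA on either strand), against 19.2% of the 32851 windows of all genes. A CCAAT box (CCAAT on either strand) was in 77.5% of the cell cycle windows and in 37.4% of all windows. An E2F motif (TTTCCCGC, TTTGGCGC, TTTCGCGC or TTTGCCGC on either strand) was in 15.0% and in 2.3%. A match is a run of letters and does not show that a factor was bound.

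The 160 bases before the start site are printed 5′ to 3′ on the gene's own strand, with capitals on the CHR, CCAAT and E2F matches. Cdk1 and Plk1 are shown because they had the widest differences between genotypes, Ccnb2 because it is a cyclin partner of Cdk1, and Mki67 and Top2a because they are the usual markers of dividing cells. Mcm5 is shown as an S phase gene.
Cdk1: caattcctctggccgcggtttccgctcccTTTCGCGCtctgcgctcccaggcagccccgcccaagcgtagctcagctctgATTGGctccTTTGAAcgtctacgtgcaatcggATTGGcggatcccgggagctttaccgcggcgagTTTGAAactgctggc
Plk1: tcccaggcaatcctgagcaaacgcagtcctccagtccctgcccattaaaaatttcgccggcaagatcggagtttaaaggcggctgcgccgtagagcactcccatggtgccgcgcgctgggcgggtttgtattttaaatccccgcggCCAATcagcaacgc
Ccnb2: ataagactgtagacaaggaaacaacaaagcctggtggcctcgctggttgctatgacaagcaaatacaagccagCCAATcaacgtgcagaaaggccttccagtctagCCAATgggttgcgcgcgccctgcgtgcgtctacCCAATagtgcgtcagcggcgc
Mki67: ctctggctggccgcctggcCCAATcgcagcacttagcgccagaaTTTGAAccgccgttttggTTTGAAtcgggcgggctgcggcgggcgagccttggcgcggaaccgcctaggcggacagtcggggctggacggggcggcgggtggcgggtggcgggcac
Top2a: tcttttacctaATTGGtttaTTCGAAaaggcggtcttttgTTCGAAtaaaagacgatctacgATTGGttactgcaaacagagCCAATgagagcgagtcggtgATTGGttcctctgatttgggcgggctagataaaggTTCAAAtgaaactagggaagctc
Mcm5: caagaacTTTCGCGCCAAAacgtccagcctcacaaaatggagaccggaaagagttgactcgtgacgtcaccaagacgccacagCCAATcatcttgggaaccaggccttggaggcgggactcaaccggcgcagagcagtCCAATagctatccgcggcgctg
The Cdk1 sequence lies at chr10:69352913-69353072 (minus strand). It holds an E2F match and CHR matches at 71 and 15 bases before the start site. The Plk1 sequence lies at chr7:122159275-122159434 (plus strand) and has a CCAAT box 14 bases before the start site, while its CHR match lies 30 bases after the start site and is not printed. The Ccnb2 sequence lies at chr9:70421555-70421714 (minus strand), with CCAAT boxes at 87, 54 and 21 bases before the start site. Its CHR matches lie 167 bases before and 4 bases after the start site and are not printed. The Mki67 sequence lies at chr7:135716380-135716539 (minus strand), with CHR matches at 116 and 98 bases. The Top2a sequence lies at chr11:99024190-99024349 (minus strand) and holds CHR matches at 140, 120 and 23 bases and 4 of the CCAAT boxes of its window. The Mcm5 sequence lies at chr8:75109349-75109508 (plus strand). It holds CCAAT boxes and an E2F match read on both strands, TTTCGCGC overlapping GCGCCAAA, and its window has no CHR match.

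All levels are log2 values that the authors made with RMA, a method that corrects background, normalizes between arrays and sums up the probes of a gene. B2m checked the labels. It was at 10.40, 10.56, 10.47 and 10.24 in knockout arrays, against 13.42, 13.41 and 13.39 in wildtype arrays, a difference of -2.99 (SE 0.10, limma adjusted p = 1.75e-07, higher in 3 of 3 wildtype arrays). Microglial identity was checked with 14 measured markers, and 14 of 14 lay in every array above the 95th percentile of the negative controls (5222 rows). The 14 include Ptprc (CD45) and Itgam (CD11b), on which the cells were sorted, so these add nothing beyond the sort. Markers of T cells (9), natural killer cells (7), B cells (5) and astrocytes (8) were below that percentile in every array. Markers of neutrophils, which are also CD45+ and CD11b+, were not at background: 5 of 10 lay above it in every array and 0 of 10 below it in every array. Of 8 markers of border-associated macrophages, 2 lay above it in every array and 4 below it in every array. Of 10 neuronal markers, 1 lay above it in every array and 9 below it in every array. Of 9 markers of oligodendrocytes and their precursors, 8 lay below it in every array. Array medians ran from 7.68 to 7.75, and over all named genes 5 of 19505 had a limma adjusted p under 0.05 (2 higher and 3 lower in knockout), which is 0.0256% (0.0103% higher and 0.0154% lower).

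Most cell cycle genes were dim in these cells. The 95th percentile of these controls lay between 9.35 and 9.55 in the 7 arrays, and 36 of the 45 genes (80.0%) were below it in every array, against 72.8% of all named genes. Above it in every array were 4 genes (8.9%, against 18.1% of all named genes): the D-type cyclin Ccnd3, the sliding clamp Pcna, the helicase subunit Mcm3 and the microtubule regulator Stmn1. The remaining 5, Ccnb2, Cenpa, Tyms, Mcm2 and Mcm5, were above it in some arrays only. Some negative control rows are bright, so this percentile is a rough guide, and a level of 1 probe set cannot be set against that of another as an amount of transcript. In RNA of a whole sorted population, fewer dividing cells and less transcript per cell cannot be told apart.

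**Figure D1:**
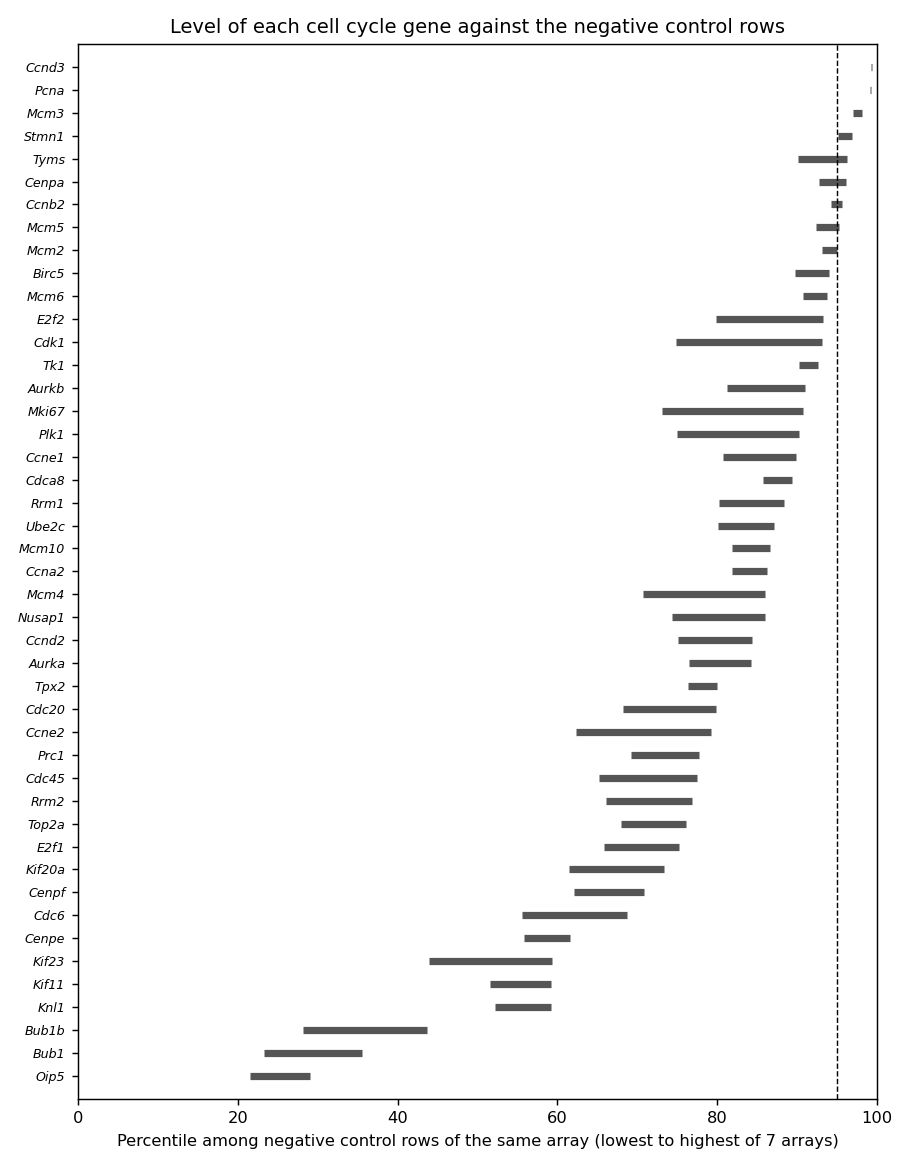
Level of each of the 45 cell cycle genes as a percentile among the negative control rows of the same array; each bar runs from the lowest to the highest of the 7 arrays and the dashed line marks the 95th percentile. The bars of Ccnd3, Pcna, Mcm3 and Stmn1 lie wholly above the line and those of 36 genes lie wholly below it.

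Between genotypes, 0 of 45 cell cycle genes passed the limma test at an adjusted p under 0.05 over all named genes, beside a background of 0.0256% (0.0103% higher, 0.0154% lower). At an unadjusted p under 0.05, 5 of 45 (11.1%) were counted, against 9.10% of all named genes. These were 4 higher in knockout (Plk1, Cdk1, Tyms and Mcm5), where the background was 5.11%, and 1 lower (Ccnd2), where it was 3.99%. For the same 5 genes the arrays of the genotypes did not overlap (11.1%, background 9.06%, or 4.40% higher and 4.66% lower). Leaving out wildtype replicate 2 left 3 genes at an unadjusted p under 0.05, against 6.38% of all named genes. Leaving out wildtype replicate 1 gave 8 genes without overlap, against 17.2% of all named genes, and leaving out wildtype replicate 3 also gave 8, against 18.3%. The median difference of the 45 genes, knockout minus wildtype, was 0.0038 on the log2 scale, and that of all named genes was -0.028. Of the 45 genes, 23 had a difference above 0 and 22 below 0, and their differences ran from -0.28 to 0.83 with a median SE of 0.13. This tally moved with the scaling and with single arrays: 33 of 45 were above 0 with arrays centred on their medians, where the median of all named genes was 0.0063, 31 without wildtype replicate 2 and 30 without knockout replicate 1. The shares of genes at an unadjusted p under 0.05 and without overlap lay near the background.

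**Figure D2:**
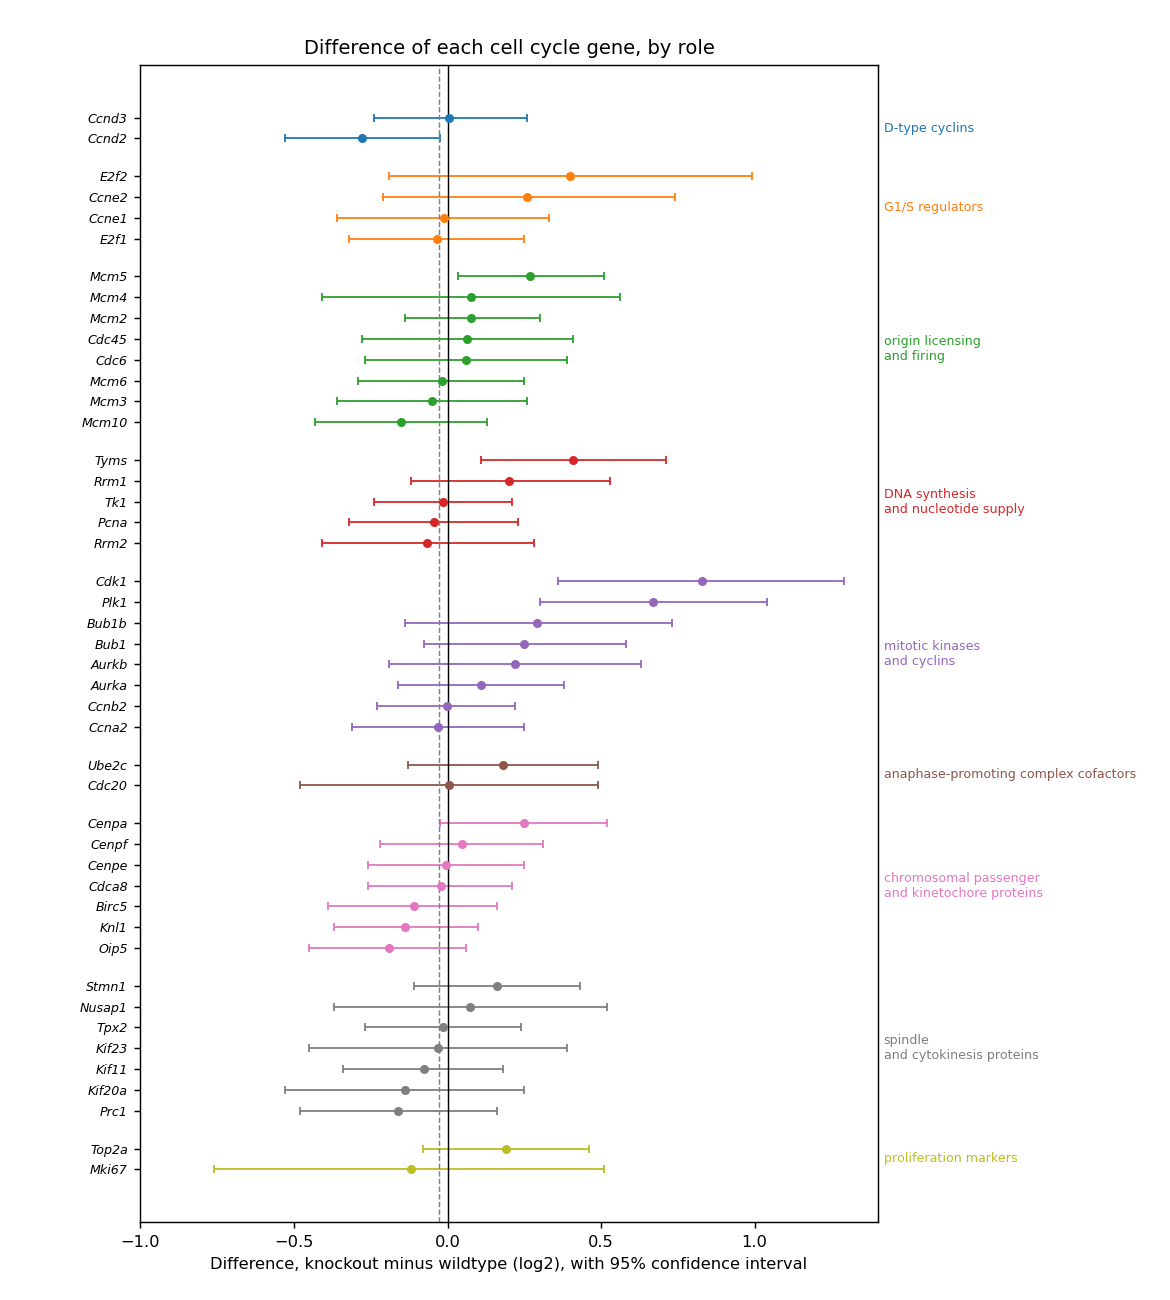
Difference of each cell cycle gene between genotypes, knockout minus wildtype on the log2 scale, with its unadjusted 95% confidence interval from limma (4 knockout and 3 wildtype arrays), grouped by role. The solid line marks 0 and the dashed line the median of all named genes, -0.028; Cdk1 and Plk1 lie farthest to the right, at 0.83 and 0.67, and Ccnd2 farthest to the left, at -0.28.

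D-type cyclins link growth factor signals to cell cycle entry, and both measured ones are described. Ccnd3 was the brightest of the 45 genes, at 11.70, 11.92, 12.08 and 11.92 in knockout arrays, against 11.79, 11.96 and 11.94 in wildtype arrays. The genotypes overlapped, with a difference of 0.0064 (SE 0.11, limma adjusted p = 0.991, 95% interval -0.24 to 0.26). Its sign turned under repeated quantile normalization (-0.046). Ccnd2 was below the 95th percentile of the negative controls in every array. It stood at 7.85, 8.03, 8.03 and 7.71 in knockout arrays, against 8.11, 8.30 and 8.12 in wildtype arrays. Every knockout array was below every wildtype array, the difference was -0.28 (SE 0.11), and the limma adjusted p was 0.515.

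Regulators of the step from G1 to S phase were all dim and none passed the test. E2f1, an activating E2F factor, had levels of 7.41, 7.50, 7.48 and 7.15 in knockout arrays, against 7.18, 7.53 and 7.55 in wildtype arrays, and a difference of -0.034 (SE 0.13, limma adjusted p = 0.961, 95% interval -0.32 to 0.25). The ranges overlapped, and the sign turned when the arrays were centred on their medians (0.00051) or quantile normalized again (0.018). E2f2, another activating E2F factor, spread widely among the knockout arrays (SD 0.61, against 0.15 in wildtype arrays). It was at 7.82, 9.09, 8.55 and 9.12 in knockout arrays, against 8.22, 8.41 and 8.11 in wildtype arrays, a difference of 0.40 (SE 0.27, limma adjusted p = 0.673). Knockout replicate 1 was the lowest of the 7 arrays for E2f2 and the other 3 knockout arrays were the highest. The difference was 0.68 without knockout replicate 1 (limma adjusted p = 0.511), 0.26 without knockout replicate 2 and 0.24 without knockout replicate 4. The cyclins of CDK2, Ccne1 and Ccne2, had overlapping genotypes: Ccne1 ran from 8.06 to 8.68 in knockout arrays and from 8.18 to 8.63 in wildtype arrays, and Ccne2 from 7.17 to 7.85 and from 6.86 to 7.75.

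Origins of replication are licensed by loading the MCM helicase, whose subunits 2 to 6 were measured together with the firing factors Mcm10 and Cdc45 and the loader Cdc6. Of these 8 genes 1 (12.5%) was counted at an unadjusted p under 0.05, against 9.10% of all named genes, and differences ran from -0.15 to 0.27. Mcm5 was at 9.37, 9.29, 9.49 and 9.44 in knockout arrays, against 9.18, 9.25 and 8.95 in wildtype arrays. The genotypes did not overlap, but the closest arrays, knockout replicate 2 and wildtype replicate 2, lay near each other. Its difference was 0.27 (SE 0.11) with a limma adjusted p of 0.504, and 0.18 without wildtype replicate 3. The other subunits of the same ring overlapped between genotypes. Mcm3, the brightest, was at 9.94, 9.97, 10.40 and 10.34 in knockout arrays, against 10.38, 10.07 and 10.20 in wildtype arrays. Mcm2 ran from 9.22 to 9.41 in knockout arrays and from 9.18 to 9.38 in wildtype arrays. Mcm4, from 7.54 to 8.15 and from 7.34 to 8.33, spread over a wider range in wildtype arrays, and Mcm6 ran from 8.75 to 9.15 and from 8.94 to 9.18. For the factors outside the ring the ranges also overlapped: Mcm10 from 8.03 to 8.26 in knockout arrays and from 8.0 to 8.44 in wildtype arrays, Cdc45 from 6.96 to 7.67 and from 7.13 to 7.36, and Cdc6 from 6.62 to 7.16 and from 6.60 to 6.97.

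Genes of DNA synthesis and nucleotide supply were split in the same way, with 1 of 5 (20.0%) at an unadjusted p under 0.05, against 9.10% of all named genes. Tyms, thymidylate synthase, which makes thymidine monophosphate, was at 9.73, 9.52, 9.37 and 9.39 in knockout arrays, against 9.22, 8.81 and 9.24 in wildtype arrays. Every knockout array was above every wildtype array, and wildtype replicate 2 stood lowest. The difference was 0.41 (SE 0.14, limma adjusted p = 0.464), and 0.27 without wildtype replicate 2. Pcna, which holds the polymerase on DNA and is also used in repair, was bright and overlapped: 11.86, 11.45, 11.50 and 11.55 in knockout arrays, against 11.77, 11.49 and 11.65 in wildtype arrays. Its difference was -0.044 (SE 0.12, limma adjusted p = 0.944, 95% interval -0.32 to 0.23), with the opposite sign without wildtype replicate 1 (0.024) and without knockout replicate 2 (0.002). The large subunit of ribonucleotide reductase, Rrm1, was at 8.17, 8.16, 7.96 and 8.64 in knockout arrays, against 8.03, 8.0 and 8.06 in wildtype arrays. Knockout replicate 4 stood above the others, and the difference was 0.20 (SE 0.15, limma adjusted p = 0.705), or 0.067 without that array. Rrm2, the small subunit, ran from 7.13 to 7.67 in knockout arrays and from 7.24 to 7.68 in wildtype arrays, and thymidine kinase Tk1 from 8.84 to 9.02 and from 8.84 to 9.09, so both overlapped.

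Mitotic kinases and cyclins held the widest differences. Cdk1, the kinase that starts mitosis, was at 9.06, 8.90, 8.65 and 8.97 in knockout arrays, against 7.53, 8.08 and 8.59 in wildtype arrays. No wildtype array reached a knockout array, but wildtype replicate 3 lay next to knockout replicate 3, and the wildtype arrays spread widely (SD 0.53, against 0.18 in knockout arrays). The difference was 0.83 (SE 0.21, 95% interval 0.36 to 1.29) with a limma adjusted p of 0.430. Its size depended on single arrays: it was 0.56 without wildtype replicate 1, 1.09 without wildtype replicate 3 and 0.30 with wildtype replicate 3 alone as the wildtype group. Summed marker intensity of endothelial and mural cells was 24252, 22713, 23246 and 21774 in knockout arrays, against 30384, 31147 and 21329 in wildtype arrays. Wildtype replicates 1 and 2, with less Cdk1 signal than wildtype replicate 3, had more signal of these markers. Among knockout arrays, replicate 1 had both the most Cdk1 signal and the highest sum of these markers. Plk1 was instead lowest in wildtype replicate 3 (7.53), the array with the lowest sum of these markers. Of the 17 endothelial and mural markers, 7 were above the 95th percentile of the negative controls in every array and 7 below it in every array. Their part in the Cdk1 difference was not tested.

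Plk1, polo-like kinase 1, acts in mitotic entry and spindle assembly. It was at 8.52, 8.12, 8.47 and 8.82 in knockout arrays, against 7.89, 8.02 and 7.53 in wildtype arrays. Every knockout array was above every wildtype array, with knockout replicate 2 closest to them. The difference was 0.67 (SE 0.17, 95% interval 0.30 to 1.04), the limma adjusted p was 0.430, and the value ran from 0.53 to 0.96 over the alternatives in which Plk1 was tested. Both kinases stayed below the 95th percentile of the negative controls in every array, so these are differences between signals within the range of the negative controls.

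The measured cyclin partners of Cdk1 had differences near 0, and Ccnb1 was not among the genes analysed. Ccnb2, a B-type cyclin, was at 9.31, 9.34, 9.49 and 9.43 in knockout arrays, against 9.26, 9.41 and 9.51 in wildtype arrays, a difference of -0.0026 (SE 0.10, limma adjusted p = 0.996, 95% interval -0.23 to 0.22) whose sign turned when arrays were centred on their medians (0.031). Ccna2, the A-type cyclin of S phase and early mitosis, was at 7.94, 8.15, 8.27 and 8.45 in knockout arrays, against 8.16, 8.34 and 8.21 in wildtype arrays. Its ranges overlapped, and its difference was -0.03 (SE 0.13, limma adjusted p = 0.961, 95% interval -0.31 to 0.25), turning sign when arrays were centred on their medians (0.0019). The difference between these cyclins and Cdk1 was itself not tested.

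The other mitotic kinases overlapped between genotypes. Aurora kinase genes Aurka and Aurkb ran from 7.87 to 8.19 and from 7.97 to 8.79 in knockout arrays, and from 7.74 to 8.08 and from 7.94 to 8.37 in wildtype arrays. Bub1, a spindle checkpoint kinase, was among the dimmest genes, at 4.85, 5.24, 5.48 and 5.39 in knockout arrays, against 5.12, 4.89 and 4.96 in wildtype arrays. Its knockout replicate 1 was the lowest of the 7 arrays, and the difference was 0.25 (SE 0.15, limma adjusted p = 0.641), or 0.38 without that array. Bub1b, which encodes the checkpoint protein BubR1, was at 5.76, 5.11, 5.42 and 6.06 in knockout arrays, against 5.14, 5.47 and 5.27 in wildtype arrays. Here knockout arrays held both the highest and the lowest value, and the difference was 0.29 (SE 0.20, limma adjusted p = 0.676). It was 0.14 without knockout replicate 4 and 0.45 without knockout replicate 2.

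**Figure D3:**
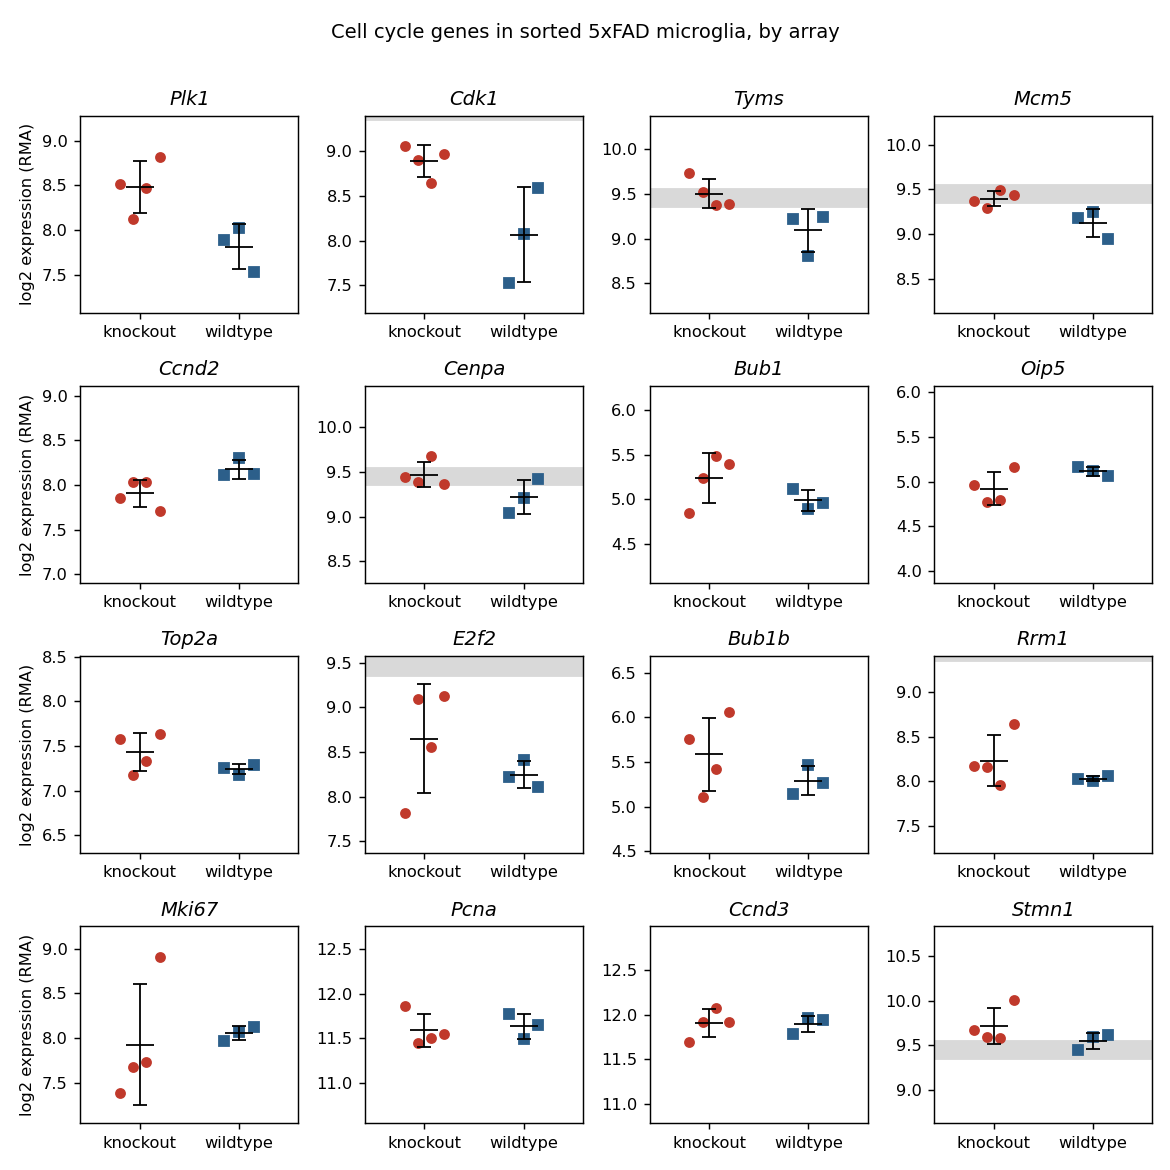
Values of 16 cell cycle genes in each array, with log2 expression after RMA on the vertical axis, knockout arrays as red circles and wildtype arrays as blue squares; black bars are the mean and SD (n = 4 knockout and n = 3 wildtype) and grey bands mark the range of the negative control 95th percentile where it falls in the panel. Every panel spans the same height on the log2 scale; the genotypes do not overlap for Plk1, Cdk1, Tyms, Mcm5 and Ccnd2, and knockout replicate 4 stands far above the other knockout arrays for Mki67.

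Cofactors of the anaphase-promoting complex, the ubiquitin ligase that ends mitosis, overlapped. Cdc20, its activator, ran from 7.09 to 8.0 in knockout arrays and from 7.09 to 7.78 in wildtype arrays, with knockout replicate 4 highest. Ube2c, its ubiquitin-conjugating enzyme, ran from 8.01 to 8.41 and from 7.86 to 8.37.

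Chromosomal passenger and kinetochore genes gave 0 of 7 at an unadjusted p under 0.05 (9.10% of all named genes), with differences from -0.19 to 0.25. Cenpa, the histone H3 variant of centromeres, was at 9.44, 9.39, 9.68 and 9.37 in knockout arrays, against 9.04, 9.21 and 9.42 in wildtype arrays. Wildtype replicate 3 fell within the knockout range, and the difference was 0.25 (SE 0.12, limma adjusted p = 0.587), or 0.15 without wildtype replicate 1. Oip5, which helps load CENP-A onto centromeres, was at 4.96, 4.77, 4.80 and 5.17 in knockout arrays, against 5.17, 5.12 and 5.07 in wildtype arrays. Knockout replicate 4 was as high as the highest wildtype array, and the difference was -0.19 (SE 0.12, limma adjusted p = 0.641). The passenger subunits Birc5 (survivin) and Cdca8 (borealin) ran from 8.77 to 9.22 and from 8.37 to 8.57 in knockout arrays, and from 9.04 to 9.14 and from 8.29 to 8.58 in wildtype arrays. The outer kinetochore scaffold Knl1, the kinetochore motor Cenpe and the kinetochore protein Cenpf lay between 6.31 and 7.27 in every knockout array and between 6.45 and 7.08 in every wildtype array.

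Spindle and cytokinesis genes likewise gave 0 of 7 at an unadjusted p under 0.05 (9.10% of all named genes), with differences from -0.16 to 0.16. Stmn1, which destabilises microtubules and was bright in every array, was at 9.67, 9.59, 9.58 and 10.01 in knockout arrays, against 9.45, 9.59 and 9.61 in wildtype arrays. Knockout replicate 4 was highest, and the difference was 0.16 (SE 0.12, limma adjusted p = 0.723, 95% interval -0.11 to 0.43), or 0.064 without that array. Nusap1 and Tpx2, which bind spindle microtubules, ran from 7.48 to 8.43 and from 7.60 to 8.01 in knockout arrays, and from 7.72 to 8.20 and from 7.67 to 7.87 in wildtype arrays. The spindle motor Kif11 ran from 6.27 to 6.60 in knockout arrays and from 6.33 to 6.66 in wildtype arrays. The cytokinesis motors Kif20a and Kif23 ran from 6.87 to 7.31 and from 5.89 to 6.79 in knockout arrays, and from 6.78 to 7.52 and from 6.34 to 6.60 in wildtype arrays. Prc1, which bundles midzone microtubules, lay within a narrow range of 7.30 to 7.40 in knockout arrays, inside that of 7.14 to 7.82 in wildtype arrays.

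Mki67 and Top2a are the genes most used to mark dividing cells. Mki67, which encodes Ki-67, was at 7.39, 7.68, 7.73 and 8.91 in knockout arrays, against 7.97, 8.07 and 8.12 in wildtype arrays. Knockout replicates 1 to 3 were below every wildtype array and knockout replicate 4 was above every one. The difference was -0.12 (SE 0.29, limma adjusted p = 0.929, 95% interval -0.76 to 0.51). Without knockout replicate 4 it was -0.45 (limma adjusted p = 0.301), and without knockout replicate 1 it was 0.054, so its sign depended on single arrays. Top2a, topoisomerase II alpha, which untangles replicated chromosomes, was at 7.58, 7.18, 7.33 and 7.63 in knockout arrays, against 7.25, 7.18 and 7.29 in wildtype arrays. The genotypes overlapped, and the difference was 0.19 (SE 0.12, limma adjusted p = 0.664).

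Knockout replicate 4 held the highest of the 7 values for 13 of the 45 cell cycle genes (28.9%), against 15.1% of all named genes. It held the lowest for 8.9% of them, against 25.6% of all named genes. The 13 genes were Mki67, Top2a, Plk1, Ccna2, Bub1b, Cdc20, Cenpe, Kif23, Nusap1, Tpx2, Rrm1, Stmn1 and E2f2. In the other direction, knockout replicate 1 held the lowest value for 10 of 45 genes (22.2%), against 12.6% of all named genes. These shares describe single arrays of 1 genotype and were given no test.

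**Figure D4:**
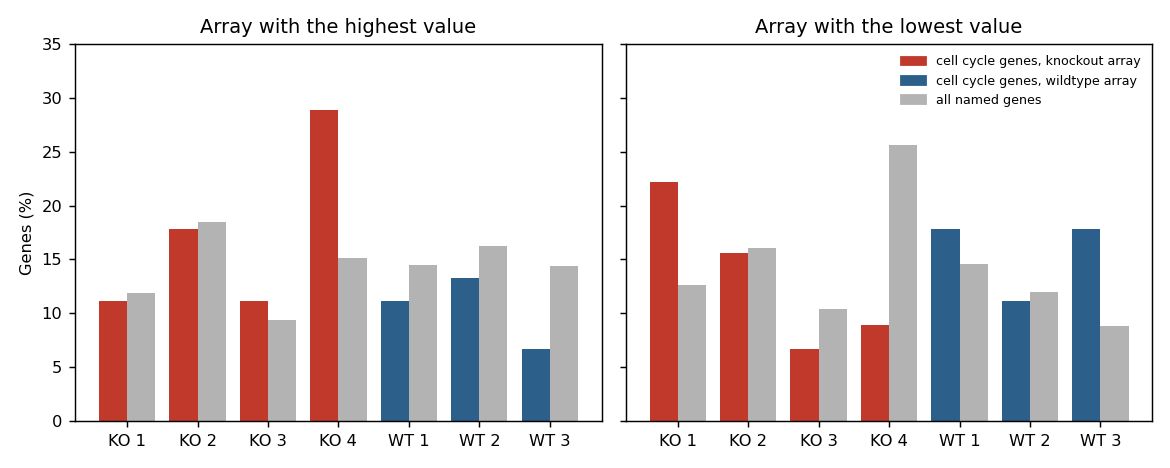
Share of genes (%) for which each array held the highest value (left panel) or the lowest value (right panel), for the 45 cell cycle genes (red in knockout arrays, blue in wildtype arrays) and for all named genes (grey). Knockout replicate 4 held the highest value for 28.9% of cell cycle genes against 15.1% of all named genes.

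Markers of neutrophils and of monocytes were also highest in knockout replicate 4. The summed intensity of 10 neutrophil markers was 17527, 23631, 31272 and 42522 in knockout arrays, against 20230, 25438 and 18323 in wildtype arrays. It was lowest in knockout replicate 1 and highest in knockout replicate 4, the arrays that most often held the lowest and highest cell cycle values. Knockout replicate 3, with the next highest sum, held the highest value for 11.1% of the cell cycle genes, against 9.4% of all named genes. The 8 monocyte markers summed to 11962 in knockout replicate 4, to between 7993 and 8996 in the other knockout arrays and to between 7462 and 8370 in wildtype arrays. Of them 1 lay above the 95th percentile of the negative controls in every array and 3 below it in every array. The 9 markers of granulocyte and monocyte precursors, cells that divide in bone marrow, summed to between 5922 and 7706 in knockout arrays and to between 4595 and 8068 in wildtype arrays, with wildtype replicate 2 highest and knockout replicate 4 next. Of these 1 lay above that percentile in every array and 4 below it in every array. The 14 microglial markers summed to between 79069 and 83411 in knockout arrays and to between 77025 and 82690 in wildtype arrays. The part of these cells in the cell cycle values was not tested.

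**Figure D5:**
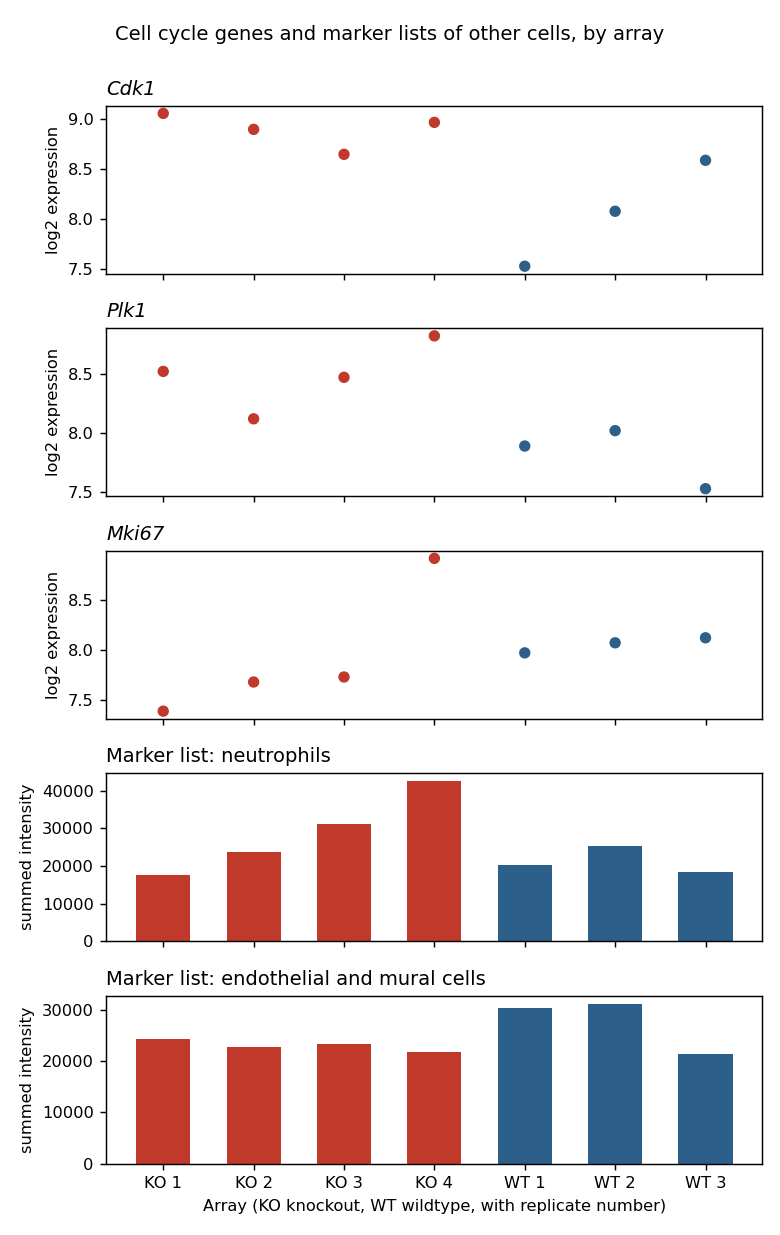
Cdk1, Plk1 and Mki67 (log2 expression after RMA, upper panels, axes not starting at 0) and the summed linear intensity of neutrophil and of endothelial and mural markers (lower panels) in each array, knockout (KO, red) left of wildtype (WT, blue). Knockout replicate 4 is highest for Mki67, Plk1 and the neutrophil markers (42522), and wildtype replicates 1 and 2 are lowest for Cdk1 and highest for the endothelial and mural markers. Wildtype replicate 3 is lowest for Plk1 and for the endothelial and mural markers.

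B2m lies on chromosome 2, as do 3 of the other 4 genes called over the whole array. Of the 45 cell cycle genes, 11 are on this chromosome: Bub1, Bub1b, Knl1, Oip5, Nusap1, Pcna, Tpx2, E2f1, Ube2c, Aurka and Mcm10. Of these, 0 were counted at an unadjusted p under 0.05 (9.10% of all named genes) and 0 lacked overlap between genotypes (9.06%), and their differences ran from -0.19 to 0.29. The nearest in the order of named genes were Nusap1, Oip5 and Bub1, 52, 53 and 55 genes from B2m. The other 3 called genes of this chromosome lay 8, 49 and 61 genes from B2m. All 5 genes without overlap were among the 34 located elsewhere.

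Differences were also read by the promoter motifs printed above. The 21 genes with a CHR match had a median difference of 0.062, and the 16 without one had a median of -0.013. Of each group 2 were at an unadjusted p under 0.05, against 9.10% of all named genes. These were Cdk1 and Plk1 with a match and Tyms and Mcm5 without one. The 6 genes with an E2F match had a median of 0.17, and the 31 without one a median of -0.0026. For the CCAAT box the medians were 0.0064 in 29 genes with a match and -0.013 in 8 without one. These are descriptions and were not tested.

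Other genes of the pathway were read from 6 lists, and 0 genes of any list passed the limma test at an adjusted p under 0.05. Among 22 further regulators of G1 and S phase, 5 were higher and 0 lower in knockout at an unadjusted p under 0.05 (22.7%, against 9.10% of all named genes), with a median difference of 0.0093 beside -0.028 for all named genes. Tfdp1, the dimerisation partner of E2F factors, was bright, at 9.99, 10.04, 10.04 and 10.18 in knockout arrays, against 9.68, 9.68 and 9.81 in wildtype arrays. Its genotypes did not overlap and its difference was 0.34 (SE 0.097, limma adjusted p = 0.430). Cdk7 and Mnat1, subunits of the kinase that activates CDKs, had differences of 0.28 and 0.33, and Skp2, which targets the inhibitor p27 for destruction, had 0.37, with limma adjusted p-values of 0.524, 0.464 and 0.464.

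Among 23 measured inhibitors and arrest genes, 1 was higher and 3 were lower in knockout at an unadjusted p under 0.05 (17.4%, against 9.10% of all named genes). Their median difference was -0.03, near the -0.028 of all named genes. Plk2, a stress-responsive polo-like kinase, was at 10.51, 10.41, 10.66 and 10.50 in knockout arrays, against 11.17, 11.05 and 10.88 in wildtype arrays. All knockout arrays were below all wildtype arrays, opposite in direction to Plk1, with a difference of -0.51 (SE 0.11, limma adjusted p = 0.386). The stress-induced gene Sesn2 had a difference of -0.34, the antiproliferative gene Tob1 -0.30 and the CDK4 and CDK6 inhibitor Cdkn2d 0.37, with limma adjusted p-values of 0.464, 0.511 and 0.505.

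DNA replication factors had 6 genes higher and 2 lower of 43 at an unadjusted p under 0.05 (18.6%, against 9.10% of all named genes). Their median difference was 0.057, beside -0.028 for all named genes. The GINS helicase subunit Gins2 had a difference of 0.50, the smallest subunit of the single-strand binding protein, Rpa3, 0.52, DNA ligase 1 (Lig1) 0.26 and the polymerase epsilon subunit Pole2 0.45. All 4 were below the 95th percentile of the negative controls in every array, and their limma adjusted p-values ran from 0.445 to 0.473. Of 69 other mitotic genes, 3 were higher and 3 lower (8.7%, near the share of all named genes), with a median of 0.024 beside -0.028. Kif2c, a microtubule-depolymerising motor, had a difference of 0.57 (SE 0.13, limma adjusted p = 0.386), and the checkpoint gene Mad2l1 had 0.52 (SE 0.13, limma adjusted p = 0.430). The spindle gene Ckap2l and the passenger scaffold Incenp had differences of -0.68 and -0.35, with limma adjusted p-values of 0.430 and 0.454. Ckap2l lies on chromosome 2, 69 named genes from B2m.

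Canonical histone genes, transcribed mainly in S phase, had 3 of 53 at an unadjusted p under 0.05 (5.7%, against 9.10% of all named genes), all of them higher in knockout. Of the 53, 43 (81.1%) had a difference above 0, against 42.3% of all named genes. Their median was 0.092, beside -0.028 for all named genes. They were brighter: 60.4% lay above the 95th percentile of the negative controls in every array, against 18.1% of all named genes. Among genes with a mean above that percentile, the median was 0.091 for 35 histone genes and 0.024 for all genes kept. The histone median was 0.065 under repeated quantile normalization (all named genes -0.0086) and 0.13 with arrays centred on their medians (all named genes 0.0063). Over all alternatives it reached 0.16, without wildtype replicates 1 and 2 (all named genes -0.026). With all 53 tested, the number above 0 ran from 37, without wildtype replicate 1, to 46, without wildtype replicate 2 or without knockout replicate 4. H2bc11, H4c14, H2bc3 and H4c9 had differences of 0.29, 0.29, 0.27 and 0.22, with limma adjusted p-values from 0.464 to 0.567. Histone genes are near-identical copies, so probes may cross between them and these values are not independent. Genes of microglial growth factor signalling gave 0 of 19 at an unadjusted p under 0.05 in either direction, against 9.10% of all named genes. Their 4 genes with the smallest p-values were the receptor kinase Axl (0.24), the adaptor Tyrobp (0.19), the transcription factor Irf8 (0.19) and the CSF1 receptor ligand Il34 (-0.16), with limma adjusted p-values from 0.551 to 0.658.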

How the data were processed

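RNA of sorted brain microglia was hybridized to 1 array per sample, in 4 B2m knockout and 3 B2m wildtype samples grouped by the genotype in the labels. The authors deposited log2 expression values made with RMA, for which the submitters' processing notes name Affymetrix Expression Console 1.1. No genome build for the array was given in the sources used here. Of 28846 deposited rows, 19572 had 1 gene symbol, 0 had several and 9274 had no listed gene. All 19572 matched the RefSeq gene table of GRCm38.p6 by Entrez identifier and named 19505 genes; for the 55 genes with several probe sets the one with the highest mean was kept. Rows with a neg tag were read as negative controls.

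Genotypes were compared with lmFit and eBayes in limma 3.58.1 (R 4.3.3), without a filter on dim genes, and p-values were adjusted by Benjamini-Hochberg over all named genes (threshold 0.05). SE and intervals come from this fit. On simulated data only its calls and mean differences were checked, not its SE or intervals. Separate animals are not stated, so the p-values reflect only how these samples spread, part of which may be technical, and the number of arrays limits the precision. Summed intensities are sums of 2 to the power of the log2 values.

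Differences, SE and adjusted p are given for the 12 cell cycle genes with the smallest p, for Mki67, Top2a, Pcna, Stmn1, E2f1 and the D-type cyclins, for the brightest and dimmest gene, and, added after the values were seen, for Ccnb2 and Ccna2. From each pathway list the 4 genes with the smallest p are named. The genes and lists were chosen with earlier results of these data known. Promoter windows come from RefSeq (GRCm38.p6). Alternatives were filters on dim genes, array weights, an intensity trend, alone or with a robust prior, centring on array medians, repeated quantile normalization, other rules for several probe sets, removal of a trend with gene span and leaving out arrays.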

Additional observations from a re-analysis of the deposited data

Results flagged for a closer look

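A sample far from the others of its genotype was looked for among the 4 knockout arrays in 70 genes (B2m, the 45 cell cycle genes and 24 genes named from the pathway lists), by the gap to the nearest array over the whole range. Chance flags about 1 in 20 such groups, and 3 of 70 were found. Aurka stood at 8.19 in knockout replicate 2, above 7.87 to 7.92 in the other knockout arrays. Ube2c stood at 8.01 in knockout replicate 1, below 8.35 to 8.41 in the others. Mad2l1, the spindle checkpoint gene, stood at 9.58 in knockout replicate 1, above 9.06 to 9.15 in the others. The high Mki67 value of knockout replicate 4 was not among the 3, because the other knockout arrays were themselves spread.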

How the results depend on the processing

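No cell cycle gene was called in the limma fit or under any of the 20 alternatives, where the lowest adjusted p was 0.0723, for Cdk1 without wildtype replicate 3. No paired analysis was possible because the replicate numbers follow deposit order and link no samples. Genes called over the whole array numbered 3 when only genes with a mean above the 95th percentile of the negative controls were kept, and 4 to 19 when 1 array was left out, the 19 without wildtype replicate 3. Cell cycle genes at an unadjusted p under 0.05 numbered 0 of the 4 left under that filter, against 15.8% of all genes kept. With 1 array left out they numbered 3 to 7 of 45, against 6.38% to 10.8% of all named genes. Genes without overlap numbered 0 under that filter, 6 to 8 with 1 array left out, 16 without wildtype replicates 1 and 2 (37.8% of all named genes) and 13 without wildtype replicate 1 and knockout replicate 4 (26.2%); with fewer arrays more genes lack overlap. The median difference of the cell cycle genes ran from -0.019 under that filter to 0.054 without knockout replicate 1. Each alternative moved it by less than 0.071. That value is the SD, pooled within genotype, of each array's median deviation over the 45 genes, a spread of single arrays. The sign turned under some alternative for 25 of the 45 genes, in 96 values, and the largest difference among these genes was 0.26 in size. With 1 array left out, Ccnb2 ran from -0.067 to 0.054, Ccnd3 from -0.053 to 0.075, E2f1 from -0.15 to 0.045, Ccna2 from -0.12 to 0.055, Pcna from -0.13 to 0.024 and Mki67 from -0.45 to 0.054. Signs also turned for Ccnb2 with array weights (0.0015), centred medians (0.031) and the gene span trend removed (0.003). The same held for Ccnd3 with repeated quantile normalization (-0.046), without wildtype replicates 1 and 2 (-0.037) and without wildtype replicate 1 and knockout replicate 4 (-0.054). It held for E2f1 with repeated quantile normalization (0.018) and centred medians (0.00051), for Ccna2 with centred medians (0.0019) and for Pcna without wildtype replicate 1 and knockout replicate 4 (0.036). None of the 24 genes named from the pathway lists changed sign, and the causes of the sign changes were not tested. Signal near the negative controls limits what can be read for 36 of the 45 genes.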
